A study of Collinsia rattanii with 18 samples.

Results

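The 151 genes described here differed widely between plants of the outcrossing *C. linearis* and little between plants of its selfing sister species *C. rattanii*. They were taken from the 46127 genes of the deposited count table by a rule on normalised read counts (CPM, the reads of a gene relative to all counted reads of its library, scaled between libraries with TMM factors). A gene was kept where its mean was at least 2 CPM in each species and its coefficient of variation (CV, the SD over the 3 plants divided by their mean) was at least 0.6 in *C. linearis* at both bud stages B2 and B3. Its CV also had to be at most 0.3 in *C. rattanii* at each of B1, B2 and B3. The genes were thus chosen by their measured spread and mean level, and the CVs of those 5 groups are given as a description only. The spread in *C. linearis* at B1 was not part of the rule, and neither was the question of which plant stood highest.

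The study compared floral buds before anthesis of wild-derived, untreated *C. linearis* and *C. rattanii* at an early (B1), a middle (B2) and a late (B3) stage, set by bud size and organ colour. Each of the 6 groups of species and stage held 3 libraries, labelled plant 1, plant 2 and plant 3, and each library was made from 2 to 4 whole buds of a plant. The plants of each species came from more than a single population, and the labels used here do not say which plant came from which. Reads of both species were aligned to the *C. rattanii* genome, so that a *C. linearis* read was counted only where it matched a gene model of the other species.

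A floral bud holds sepals, petals, stamens and carpels that mature at different times, and a library of whole buds mixes the RNA of all of them. Fewer cells of a type and less RNA per cell therefore cannot be told apart in any value below. Outcrossing plants commonly carry more genetic variation between and within individuals than selfing plants, whose lineages become homozygous. None of the 151 identifiers is tied to a gene name, a function or a sequence in the sources used here, so no role is given for any of them.

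The libraries held 23831351 to 41451418 counted reads. Those labelled *C. linearis* plant 2 stood apart at B2 and B3, where TMM factors over all genes were 0.716 and 0.522 against 0.935 to 1.203 in the other 16, and where the 50 most counted genes took 15.6% and 22.8% of reads against 8.11% to 11.2%. Of 6 anther and pollen wall genes (among them orthologs of LAP5 and LAP6, enzymes of sporopollenin synthesis), the summed level was 27.8, 1398 and 3193 CPM in *C. linearis* B1 plants 1, 2 and 3, against 17.7 to 35.03 in the 6 later *C. linearis* libraries and 21.9 to 43.4 in *C. rattanii*. The callose genes of that list, RCORA36422 and RCORA205649, were at 32.3 to 55.5 CPM in B1 plants 2 and 3 and at no more than 1.67 CPM elsewhere.

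The plant numbers of *C. linearis* did not mark the same on or off state of genes across stages. Among genes with each *C. linearis* library at or below 0.2 CPM or at or above 1 CPM, and at least 2 libraries on either side, 348 were found, and in 0 of them did the state follow the plant number over the 3 stages. The state of plant 3 was the same at B1, B2 and B3 in 13 of the 348, that of plant 2 in 53 and that of plant 1 in 177. The commonest pattern, in 112 genes, had only B1 plants 2 and 3 on, the libraries with the high pollen wall levels, and in 35 genes only these were off. Without those 147 genes, 201 remained, of which the state was the same at the 3 stages in 30 for plant 1, in 53 for plant 2 and in 13 for plant 3, and it followed the plant number in 0. In 45 of the genes B1 plants 1 and 2 and plant 3 of B2 and B3 were on and the other 5 libraries off. In *C. rattanii* 61 genes met the same definition, again with 0 that followed the plant number. This definition was set after the values were seen, and its cause was not tested. Libraries are named below by the plant number that the labels give, which need not stand for the same individual at B1, B2 and B3.

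Which genes passed the rule depended on how the libraries were scaled. With DESeq2 size factors 229 genes passed, 138 of them among the 151, and with TMM factors computed after the filter on low counts 199 passed, 141 of them among the 151. On plain library totals 138 genes passed, but these shared only 38 with the 151. Of the genes highest in *C. linearis* plant 2 at B2 and B3, described below, 9 of 91 passed on plain totals, and of those highest in plant 3, 19 of 37. Leaving out *C. linearis* plant 2 left 51 genes passing, 33 of them among the 151, and leaving out plant 3 left 79, whereas without plant 1 the count was 288 and without *C. rattanii* plant 3 it was 277.

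The numbers of genes on either side of each threshold describe the rule and are no finding about the genes. Of the 18108 genes at or above 2 CPM in both species, 1634 had a CV of at least 0.6 in *C. linearis* at B2 and B3, and 7804 had a CV of at most 0.3 at the 3 stages of *C. rattanii*. The 151 made up 1.93% of the steady genes, while 1483 of the 10304 genes that were not steady in *C. rattanii* (14.4%) were as variable in *C. linearis*. With the roles of the species exchanged the same thresholds chose 5 genes, which was 0.0842% of the 5937 genes steady in *C. linearis*. The exchanged count stayed between 1 and 7 under the other scalings.

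At the edge of the rule the genes inside and outside hardly differed. RCORA149186 entered with a CV of 0.601 in *C. linearis* at B2, and RCORA202762 stayed out with 0.598. At B3 RCORA12912 entered with 0.605 and RCORA02821 stayed out with 0.599999. On the *C. rattanii* side RCORA213831 (CV 0.2996) was inside and RCORA88144 (0.305) outside at B1, RCORA76813 (0.2998) and RCORA40488 (0.304) at B2, and RCORA32922 (0.296) and RCORA190354 (0.301) at B3. For the mean level RCORA36118 entered with 2.02 CPM in *C. linearis* and RCORA171572 with 2.08 CPM in *C. rattanii*, while RCORA90985 (1.86 CPM) and RCORA25472 (1.97 CPM) stayed out.

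All 151 genes passed the filter of the tests below, 129 of them had at least 10 reads in every library, and 11 had no read in at least 1 library. Their mean over the 18 libraries ran from 2.52 to 221 CPM with a median of 18.8. In *C. rattanii* the median CV was 0.166 at B1, 0.179 at B2 and 0.136 at B3. In *C. linearis* it was 0.721 at B2 and 0.919 at B3. The highest plant stood a median of 4.26 times above the lowest at B2 and 6.15 times at B3, whereas the whole range over the 9 *C. rattanii* libraries had a median of 1.84 times.

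The genes fell into few profiles. In 91 of the 151 (60.3%) *C. linearis* plant 2 was highest at both B2 and B3, against 18.6% of the 27837 genes tested. Plant 3 was highest at both stages in 37 genes (24.5% against 22.1%), plant 1 in 4 (2.65% against 13.7%), and in the remaining 19 the highest plant changed between B2 and B3. Of the 1483 genes equally variable in *C. linearis* but not steady in *C. rattanii*, 52.8% had plant 2 and 31.2% plant 3 highest. The 91 genes were those in which the libraries with the low TMM factors were highest. Their part in this count was not tested beyond the scalings, under which plant 2 was highest in 84 of the 151 genes on plain totals and in 92 with DESeq2 size factors.

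The summed level of the 91 genes shows the profile. It was 6101, 1870 and 1822 CPM in *C. linearis* B1 plants 1, 2 and 3. At B2 it was 6686, 16237 and 4704 CPM, and at B3 it was 5232, 21975 and 3156 CPM. Plant 2 was thus highest at B2 and B3, but at B1 it was close to plant 3 and under plant 1, and at that stage both lay inside the 1759 to 2714 CPM of the 9 *C. rattanii* libraries. As a share of all reads, with no scaling, the same genes took 0.607%, 0.215% and 0.207% at B1, 0.655%, 1.16% and 0.476% at B2, and 0.493%, 1.15% and 0.322% at B3. The order of plants within each stage was the same on both scales, and the lead of plant 2 was smaller on plain shares.

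**Figure D1:**
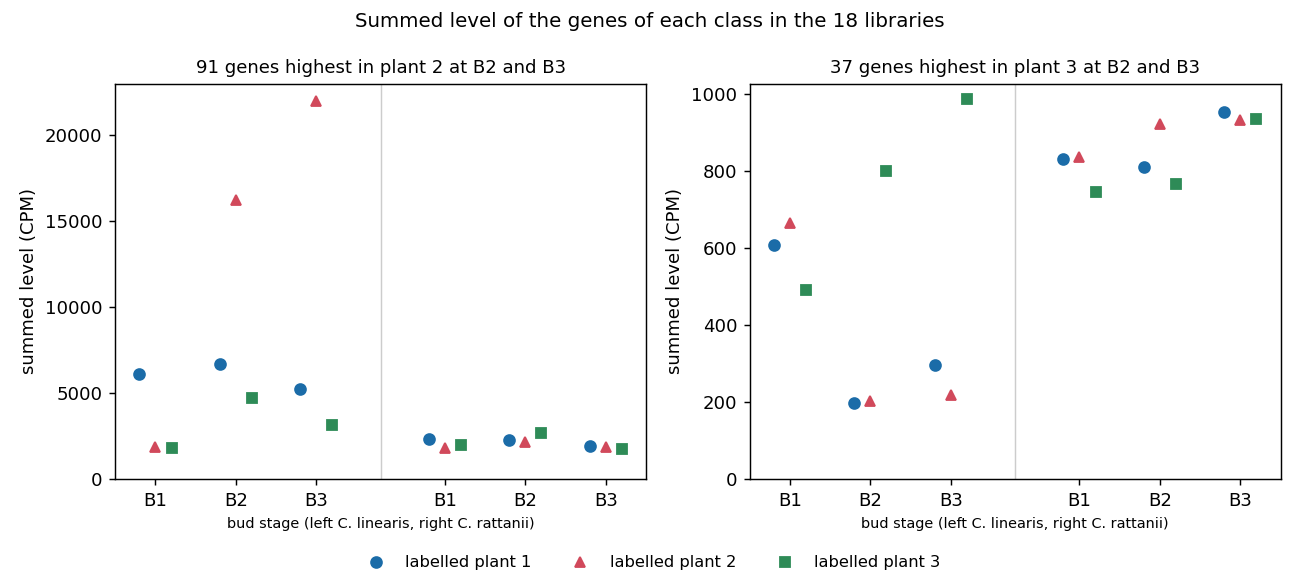
Summed level in CPM of the 91 genes highest in *C. linearis* plant 2 at B2 and B3 (left) and of the 37 highest in plant 3 (right), by bud stage. Each mark is a library, with colour and shape giving the labelled plant, and plant 2 stands at 16237 and 21975 CPM at B2 and B3 on the left while the *C. rattanii* libraries lie between 1759 and 2714.

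Gene by gene, plant 2 stood a median of 2.84 times above the mean of the other plants at B2 (range 1.99 to 5.57) and 4.70 times at B3 (1.84 to 13.8) in the 91 genes, which the rule and the class together fix in direction. At B1, which neither used, plant 2 was at a median of 0.535 times the mean of the others (0.119 to 1.14). Plant 1 was highest at B1 in 85 of the 91 genes, plant 3 in 6 and plant 2 in 0. Among all tested genes with plant 2 highest at B2 and B3, plant 1 was highest at B1 in 73.3%. In 60 of the 91 genes B1 plant 1 was more than 2 times above both other B1 libraries, and in 52 B1 plants 2 and 3 were the lowest 2 of the 9 *C. linearis* libraries. Those are also the libraries in which the pollen wall genes reached 1398 and 3193 CPM, and the part of that difference was not tested.

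RCORA233581 had the highest mean CPM of the 151 genes over the 18 libraries. It was at 278, 63.6 and 55.0 CPM in *C. linearis* B1 plants 1, 2 and 3, at 318, 882 and 227 CPM at B2, and at 237, 1247 and 113 CPM at B3. In *C. rattanii* it lay between 42.8 and 95.2 CPM, so that all *C. linearis* libraries but B1 plants 2 and 3 were above every *C. rattanii* library. The next genes by mean CPM had the same order of plants within B1, B2 and B3 or nearly so. RCORA50004 was at 190, 74.6 and 70.1 CPM at B1, 199, 506 and 183 CPM at B2, and 293, 1244 and 181 CPM at B3, against 58.7 to 116 CPM in *C. rattanii*. RCORA27846 was at 239, 71.9 and 64.5 CPM at B1, 260, 621 and 200 CPM at B2, and 226, 847 and 173 CPM at B3, against 49.8 to 88.3 CPM. In both, plant 2 at B3 was the highest library of all 18 and B1 plants 2 and 3 overlapped with *C. rattanii*.

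RCORA67014, RCORA202742 and RCORA198728 shared this profile with B3 values in plant 2 of 1061, 1147 and 844 CPM. Their other *C. linearis* libraries lay between 50.7 and 448, between 28.1 and 512, and between 42.5 and 323 CPM. In *C. rattanii* they lay between 49.8 and 102, 40.8 and 87.4, and 52.0 and 96.3 CPM. Of the 8 genes with the highest mean CPM, not scaled to gene length, only RCORA30003 belonged to another profile, and it is described with the genes highest in plant 3.

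Within the 91 genes the step from B2 to B3 in the library labelled plant 2 went both ways, with 48 genes higher at B3 and 43 lower. RCORA168351 had the largest increase. It was at 42.5, 25.05 and 24.3 CPM at B1, 31.8, 135 and 76.1 CPM at B2, and 176, 654 and 114 CPM at B3, while *C. rattanii* lay between 40.7 and 82.2 CPM. RCORA74596 had the largest decrease, from 87.3 CPM at B2 to 8.34 CPM at B3 in plant 2, and its other values were 56.9, 4.86 and 1.92 CPM at B1 in plants 1, 2 and 3, 52.5 and 16.9 CPM at B2 in plants 1 and 3, and 1.39 and 0.991 CPM at B3. In *C. rattanii* RCORA74596 stayed between 1.33 and 2.76 CPM.

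RCORA10590 and RCORA45182 had the same late drop. RCORA10590 was at 632, 39.3 and 27.9 CPM at B1, 743, 1329 and 241 CPM at B2, and 27.9, 131 and 35.7 CPM at B3, against 30.4 to 59.3 CPM in *C. rattanii*. RCORA45182 was at 66.6, 7.47 and 3.55 CPM at B1, 71.8, 98.8 and 21.4 CPM at B2, and 2.05, 12.2 and 3.26 CPM at B3, against 4.79 to 9.20 CPM. The B1 CVs of RCORA10590, RCORA74596 and RCORA45182 were 1.48, 1.46 and 1.37, which were the highest after RCORA158021 (1.68). In all 3 genes B1 plant 1 and the B2 libraries were high together, and B1 plants 2 and 3 and B3 plants 1 and 3 were low together.

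**Figure D2:**
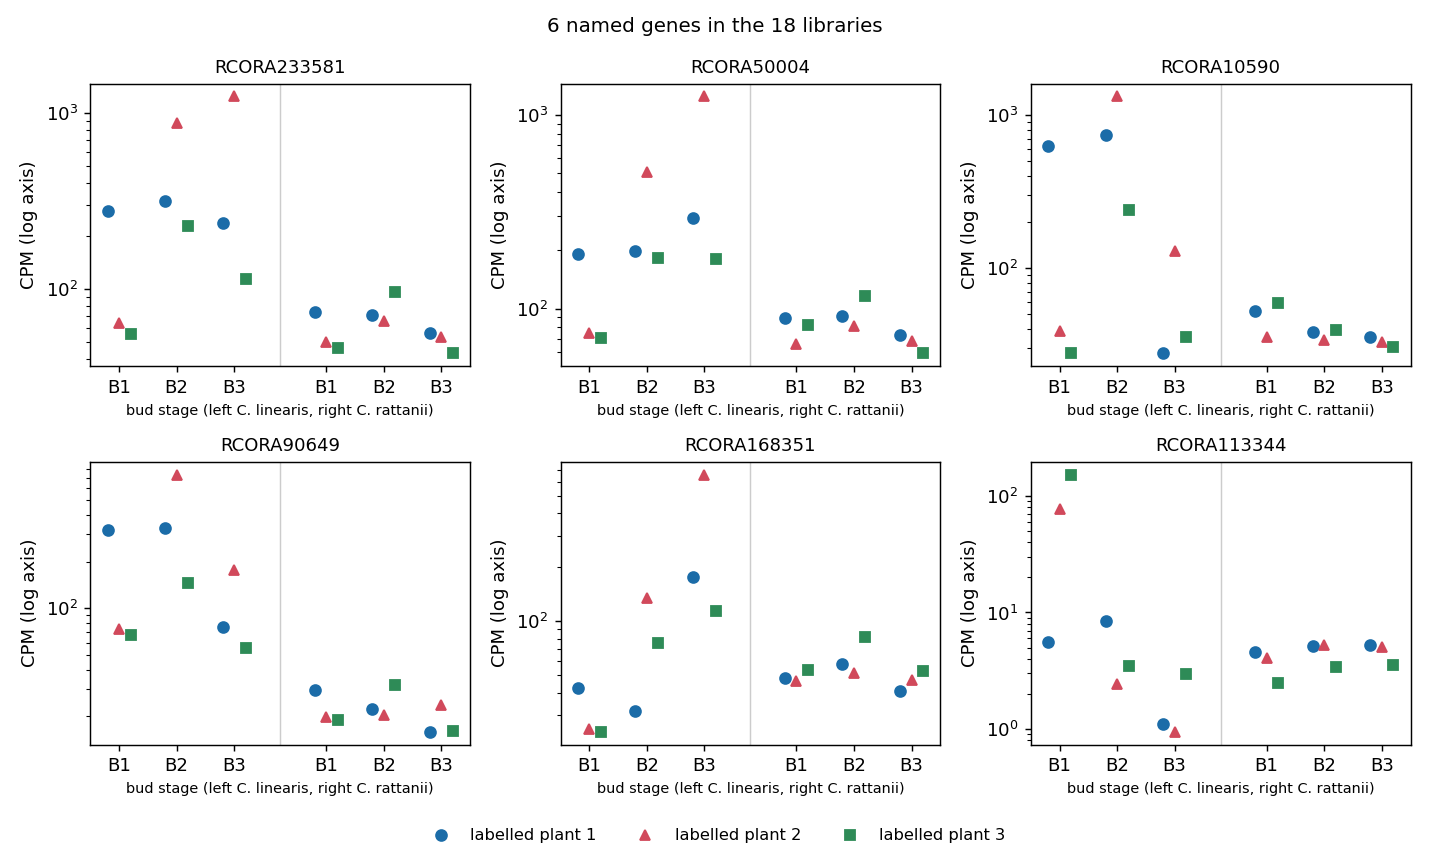
Levels in CPM on a log axis of 6 named genes in the 18 libraries, by bud stage, with colour and shape giving the labelled plant. RCORA233581, RCORA50004, RCORA10590, RCORA90649 and RCORA168351 have plant 2 highest at B2 and B3, whereas RCORA113344 was highest in B1 plants 2 and 3 at 76.6 and 151 CPM.

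The genes in which plant 2 led by most at B2 and B3 were RCORA36035, RCORA211419, RCORA03615 and RCORA166129. RCORA36035 was at 21, 4.29 and 3.88 CPM at B1, 21.9, 89.8 and 31.2 CPM at B2, and 16.5, 184 and 10.1 CPM at B3, against 4.66 to 13.0 CPM in *C. rattanii*. In RCORA211419 plant 2 reached 39.7 CPM at B2 and 137 CPM at B3, with 4.21 to 21.3 CPM in the other 7 *C. linearis* libraries and 4.41 to 9.26 CPM in *C. rattanii*. RCORA03615 reached 24.8 and 74.6 CPM against 3.13 to 12.4 and 3.46 to 6.25 CPM, and RCORA166129 reached 41.8 and 58.3 CPM against 0.962 to 12.9 and 2.35 to 4.68 CPM. In all 4 genes the B2 and B3 libraries of plant 2 were above every other library of either species.

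Across the 91 genes the levels moved together over the *C. linearis* libraries. The median Pearson r of log2 CPM over pairs of these genes was 0.80 in *C. linearis*, with 9 libraries, and 0.36 in *C. rattanii*, also with 9. The pairs share the libraries, their scaling and the choice of genes, so these values are a description. The profile was not confined to the 151 genes. Against the mean profile of the 85 genes with plant 1 highest at B1, 639 of the 18108 genes above the floor (3.53%) had an r of at least 0.9 over the 9 libraries, 42 of them among the 151, and 299 of them were steady in *C. rattanii*. The most alike gene outside the 151 was RCORA24524 (r = 0.995), at 39.2, 11.7 and 9.25 CPM at B1, 44.2, 137 and 37.03 CPM at B2, and 32.2, 157 and 14.7 CPM at B3. It missed the rule with a CV of 0.367 in *C. rattanii* at B2.

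The 37 genes highest in *C. linearis* plant 3 at B2 and B3 had another profile and lower levels relative to *C. rattanii*. Their summed level was 609, 666 and 491 CPM at B1, 197, 203 and 800 CPM at B2, and 296, 218 and 987 CPM at B3, against 746 to 952 CPM in *C. rattanii*. Plants 1 and 2 at B2 and B3 were thus under every *C. rattanii* library, and plant 3 was inside or just above their range. At B1, plant 1 was highest in 22 of the 37 genes (59.5%), plant 2 in 12 and plant 3 in 3. Among all tested genes with plant 3 highest at B2 and B3, plant 1 was highest at B1 in 31.7%. Over pairs of the 37 genes r had a median of 0.70 in *C. linearis*, against 0.03 in the other species.

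In 22 of these 37 genes, B1 plants 1 and 2 and plant 3 of B2 and B3 were all above the other 5 *C. linearis* libraries. Over all 151 genes that was 14.6%, against 3.44% of the genes tested, and the reverse split, with those 4 libraries all below the other 5, was found in 9 of the 151 (5.96% against 2.13%). The rule favoured splits within B2 and B3, whereas the order at B1 was free, and the split itself was picked after the values were seen. These are the libraries of the on and off pattern that did not follow the plant number, as given above.

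RCORA66771 shows the split at its clearest. It was at 20.8, 17.98 and 0 CPM in *C. linearis* B1 plants 1, 2 and 3, at 0.0246, 0.162 and 23.5 CPM at B2, and at 0, 0.112 and 30.0 CPM at B3. In *C. rattanii* it lay between 18.2 and 48.1 CPM, so that the 4 high *C. linearis* libraries overlapped with the other species and the 5 low ones were near 0. RCORA88472 was at 7.10, 5.28 and 0 CPM at B1, 0, 0 and 3.43 CPM at B2, and 0, 0 and 5.35 CPM at B3, against 23.6 to 27.9 CPM. RCORA97326 was at 9.74, 9.18 and 0.296 CPM at B1, 0.690, 0.0405 and 6.86 CPM at B2, and 0.0409, 0 and 9.49 CPM at B3, against 19.0 to 29.6 CPM. In these 2 genes even the high *C. linearis* libraries stayed under every *C. rattanii* library.

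RCORA226100 and RCORA86675 had the same 4 libraries high. RCORA226100 was at 3.51, 6.40, 5.59 and 12.1 CPM in them and at 0 to 0.336 CPM in the other 5, and RCORA86675 was at 9.09, 3.41, 6.95 and 13.0 CPM against 0 to 0.320 CPM. In *C. rattanii* they ran from 10.1 to 26.2 and from 9.01 to 18.2 CPM. RCORA20670 and RCORA117339 (the latter picked after its values were seen), in which the highest plant changed between B2 and B3, differed only in that B2 plant 1 was high as well. RCORA20670 was at 22.9 CPM in that library, at 2.75 to 5.95 CPM in the 4 others and at 0 to 0.0740 CPM in the remaining 4, against 23.7 to 43.9 CPM in *C. rattanii*.

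The 4 genes highest in plant 1 at B2 and B3 had nearly the opposite pattern. RCORA212742 was at 0.0310, 1.76 and 8.69 CPM at B1, 8.05, 5.03 and 1.93 CPM at B2, and 11.8, 8.39 and 0.106 CPM at B3, against 33.8 to 42.7 CPM in *C. rattanii*. RCORA212787 was at 0, 2.45 and 8.28 CPM at B1, 5.94, 4.87 and 1.11 CPM at B2, and 12.5, 6.77 and 0 CPM at B3, and RCORA224129 was at 0, 2.69 and 8.73, 9.97, 6.97 and 2.27, and 10.2, 7.78 and 0.0708 CPM. RCORA36118 was at 0, 0.587 and 2.81 CPM at B1 and at 0.0354 CPM in B3 plant 3. In all 4 genes the lowest libraries were B1 plant 1 and B3 plant 3, B1 plant 2 and B2 plant 3 came next, and the other 5 were highest. In *C. rattanii* RCORA212787, RCORA224129 and RCORA36118 lay between 11.6 and 19.1, 12.5 and 21.9, and 6.97 and 11.3 CPM.

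**Figure D3:**
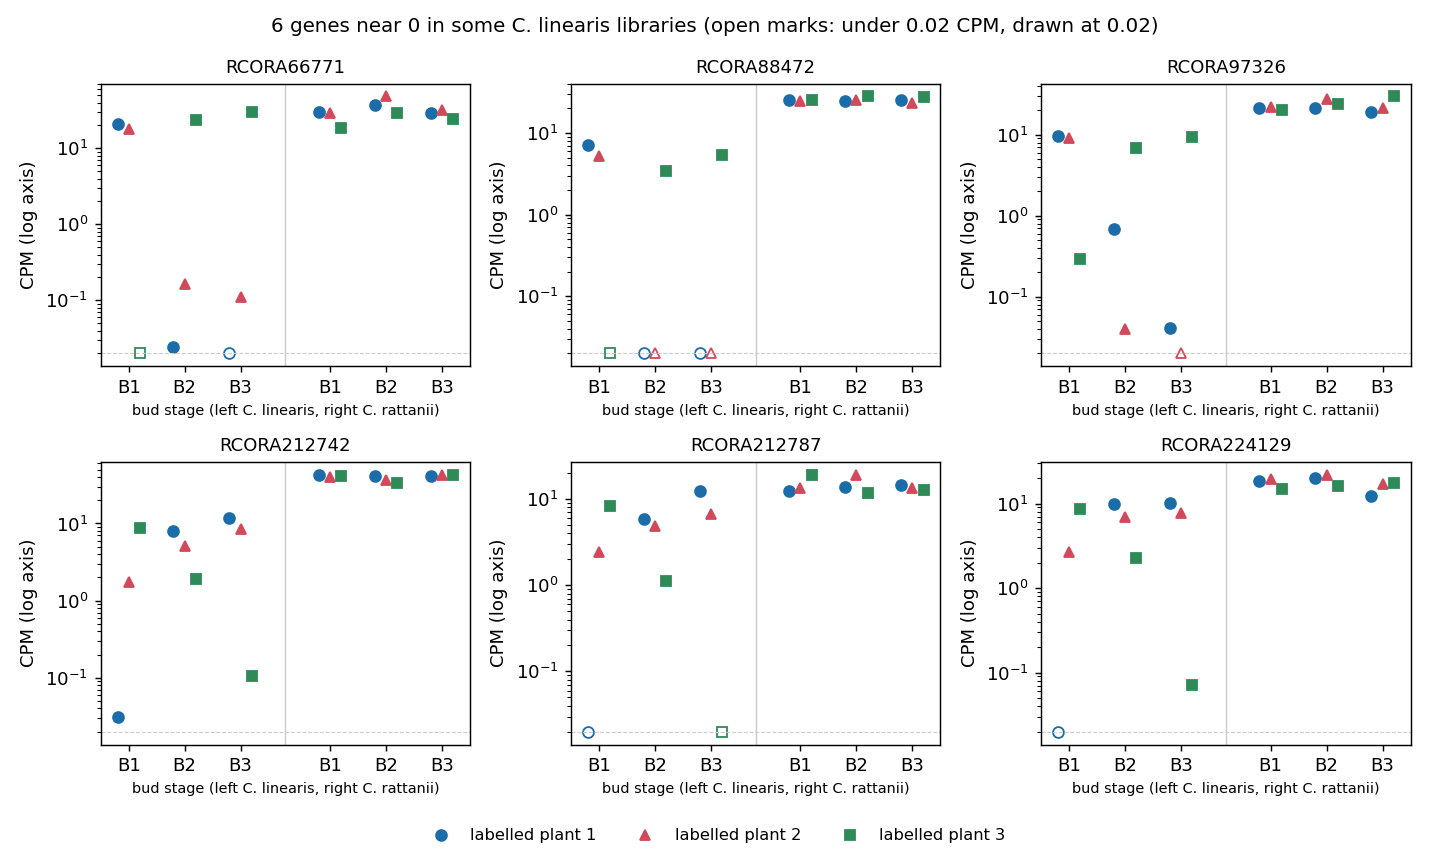
Levels in CPM on a log axis of 6 genes near 0 in some *C. linearis* libraries, by bud stage, with colour and shape giving the labelled plant and open marks standing for values under 0.02 CPM. RCORA66771, RCORA88472 and RCORA97326 were high in B1 plants 1 and 2 and in plant 3 of B2 and B3, and RCORA212742, RCORA212787 and RCORA224129 were lowest in B1 plant 1 and B3 plant 3.

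In all, 17 of the 151 genes had a *C. linearis* library at or below 0.2 CPM. That level stands for 3.58 to 8.12 reads in a *C. linearis* library. Whether reads of these genes were lost to or shared with a similar gene copy was not tested, as no sequence was used. RCORA158021 and RCORA121283 had the lowest *C. linearis* levels relative to *C. rattanii*. RCORA158021 was at 7.72, 0.160 and 0 CPM at B1, 0.936, 0.284 and 24.0 CPM at B2, and 0.0819, 0 and 0.248 CPM at B3, against 80.7 to 176 CPM. RCORA121283 was at 36.0 CPM in B2 plant 1, at 0.0370 to 1.34 CPM in the other 8 *C. linearis* libraries and at 85.5 to 174 CPM in *C. rattanii*.

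RCORA30003, the plant 3 gene with the highest mean CPM, was at 88.0, 264 and 282 CPM at B1, 40.0, 67.3 and 138 CPM at B2, and 79.0, 68.6 and 241 CPM at B3. The *C. rattanii* libraries lay between 109 and 244 CPM and overlapped with *C. linearis* at each stage. RCORA89901 reached 24.3 CPM in B2 plant 3, with 0.727 to 7.12 CPM in the other *C. linearis* libraries and 2.84 to 6.58 CPM in *C. rattanii*. RCORA198888 was at 31.7, 60.0 and 74.3 CPM at B1, 21.5, 13.6 and 45.0 CPM at B2, and 40.7, 18.4 and 91.2 CPM at B3, and it was at 48.9 to 86.4 CPM at B1 and B2 and 136 to 207 CPM at B3 of *C. rattanii*.

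The first question beyond the rule was whether the spread between plants was also present at B1 of *C. linearis*. A CV of at least 0.6 at B1 was found in 81 of the 151 genes (53.6%), against 24.0% of the genes tested and 66.6% of the 1483 genes equally variable in *C. linearis* but not steady in *C. rattanii*. A CV of at most 0.3 was found in 25 (16.6%), against 46.9% of the genes tested. The median CV at B1 was 0.632 (range 0.103 to 1.68) against 0.312 over the genes tested. Among the genes highest in plant 2, 52 of 91 had a B1 CV of at least 0.6, and among those highest in plant 3, 14 of 37. Without B1 plant 1, the count over the remaining plants was 29, and without B1 plant 2 it was 94. No test of the spread at B1 was run.

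RCORA17092, RCORA89901, RCORA171943 and RCORA21304 had the lowest CVs at B1, from 0.103 to 0.127. RCORA171943 was at 29.2, 24.4 and 23.4 CPM at B1, 36.0, 89.1 and 32.1 CPM at B2, and 34.3, 160 and 8.82 CPM at B3, against 10.5 to 17.5 CPM in *C. rattanii*. In this gene the plants were close together at B1 and apart later, with all B1 libraries above the *C. rattanii* range. RCORA17092 was at 3.82, 4.402 and 3.62 CPM at B1, 0.296, 1.70 and 2.98 CPM at B2, and 0.573, 0.336 and 1.42 CPM at B3. RCORA21304 was at 2.66 to 3.44 CPM at B1 and reached 8.08 and 4.35 CPM in plant 3 of B2 and B3.

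**Figure D4:**
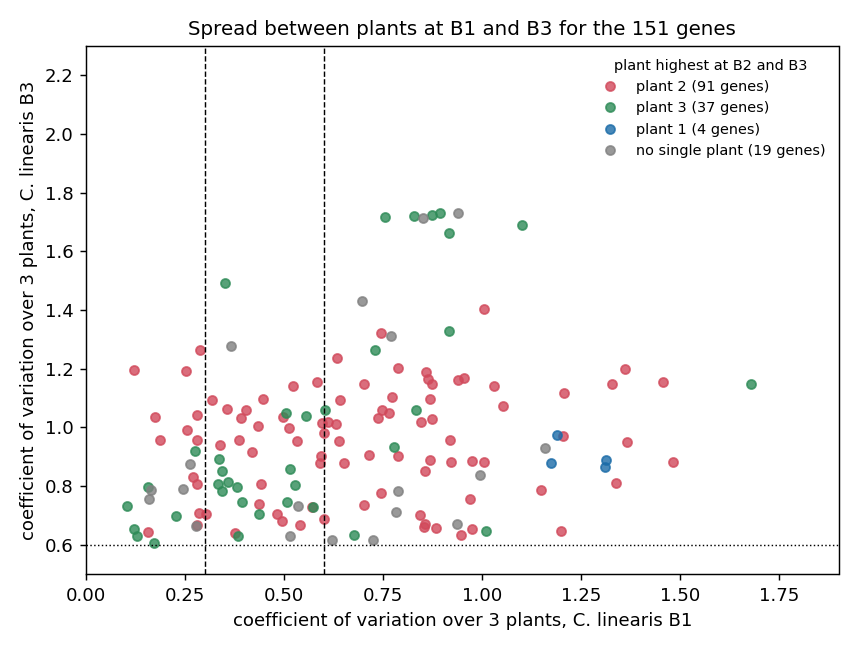
CV over the 3 plants of *C. linearis* at B1 (x axis, not used by the rule) and at B3 (y axis, used by the rule) for the 151 genes, coloured by the plant highest at B2 and B3. The dotted line is the threshold of 0.6 at B3, the dashed lines mark 0.3 and 0.6 at B1, and 81 genes lie at or right of 0.6.

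The second question was whether the same plant led throughout. The same *C. linearis* plant was highest at B1, B2 and B3 in 3 of the 151 genes (1.99%), against 14.1% of the genes tested, while the same plant was highest at B2 and B3 in 132 (87.4% against 54.4%). Among the 1483 genes equally variable in *C. linearis* but not steady in *C. rattanii*, these counts were 163 and 1270, the latter 85.6%. The 3 genes all had plant 3 highest, and the count stayed at 3 under each of the other scalings. Over the remaining pairs of plants, the same plant was higher at the 3 stages in 61 genes without plant 1, 60 without plant 2 and 21 without plant 3. Plant numbers did not mark the same on and off states across the 3 stages. The order of plants over stages therefore cannot be told apart from a difference in which individual a number stands for.

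The third question was whether the level averaged over the 3 stages differed between the species. By edgeR's quasi-likelihood test with Benjamini-Hochberg adjustment at an FDR of 0.01, 75 of the 151 genes differed (49.7%), against a background of 43.5% of the genes tested. *C. linearis* was higher in 60 (39.7%, background 22.2%) and *C. rattanii* in 15 (9.93%, background 21.3%). The spread that chose the genes is part of the error in this test, so the counts are read only beside the background. The test also took the 3 libraries of each labelled plant as independent samples. A *C. linearis* mean of at least 2 times the *C. rattanii* mean was found in 51.7% of the 151 genes and 23.8% of the genes tested. Among the 1483 genes equally variable in *C. linearis* but not steady in *C. rattanii* it was found in 57.5%. A lean towards *C. linearis* in this form was thus not particular to the 151 genes. Among the 91 genes highest in plant 2, *C. linearis* was higher in 58 and *C. rattanii* in 1, and among the 37 highest in plant 3, *C. linearis* was higher in 1 and *C. rattanii* in 9. The median log2 difference, *C. linearis* minus *C. rattanii*, was 0.93 over the 151 genes, 1.52 over the 91 and -0.73 over the 37, against 0.02 over all genes tested. The *C. linearis* B2 and B3 values that chose the genes and formed the classes are also part of these differences. A single high plant at B2 and B3 raises the *C. linearis* mean, so the directions and medians are a description.

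Counts were also summed over the 3 stages of each labelled plant, so that each plant number entered once (3 against 3, chosen after seeing the data). A number need not stand for the same individual at B1, B2 and B3, so a sum may mix individuals. On these sums edgeR's test called 29 of the 151 genes (19.2%), fewer than the background of 26.1%. Of these, 24 were among the 75. *C. linearis* was higher in 16 (10.6%, background 12.2%) and *C. rattanii* in 13 (8.61%, background 13.9%). The excess of genes higher in *C. linearis* over the background was thus not found in this form. The spread between plants that chose the genes is part of the error of this test too, which favours fewer calls than the background. The test therefore cannot decide whether the excess holds when each labelled plant enters once. The 91 genes highest in plant 2 then held 13 calls with *C. linearis* higher and 0 with *C. rattanii* higher, and the 37 highest in plant 3 held 1 and 6. The values that chose the genes and classes are part of these counts too. The 3 libraries of *C. linearis* plant 2 were also set aside, again a choice made after seeing the data. Of the 151 genes, 52 were then called with *C. linearis* higher, 51 of them among the 60, and 13 with *C. rattanii* higher. Over all 28222 genes tested in this run, 4624 and 4238 were called. The median log2 difference was 0.52 over the 151 genes and 0.03 over all genes tested. The remaining B2 and B3 values had a part in choosing the genes, so these counts are a description. The levels themselves mostly overlapped between the species, with no overlap in 18 of the 151 genes and in 4076 of the 27837 genes tested. The wide *C. linearis* spread that the rule asked for favours overlap, so this is no finding about the 151 genes. In 4 genes (2.65%) all 9 *C. linearis* values were above all 9 *C. rattanii* values and in 14 (9.27%) they were all below. The backgrounds over the genes tested were 5.8% and 8.84%. Among the 18108 genes at or above 2 CPM in both species, a floor that the rule also set, they were 2.19% and 4.43%.

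**Figure D5:**
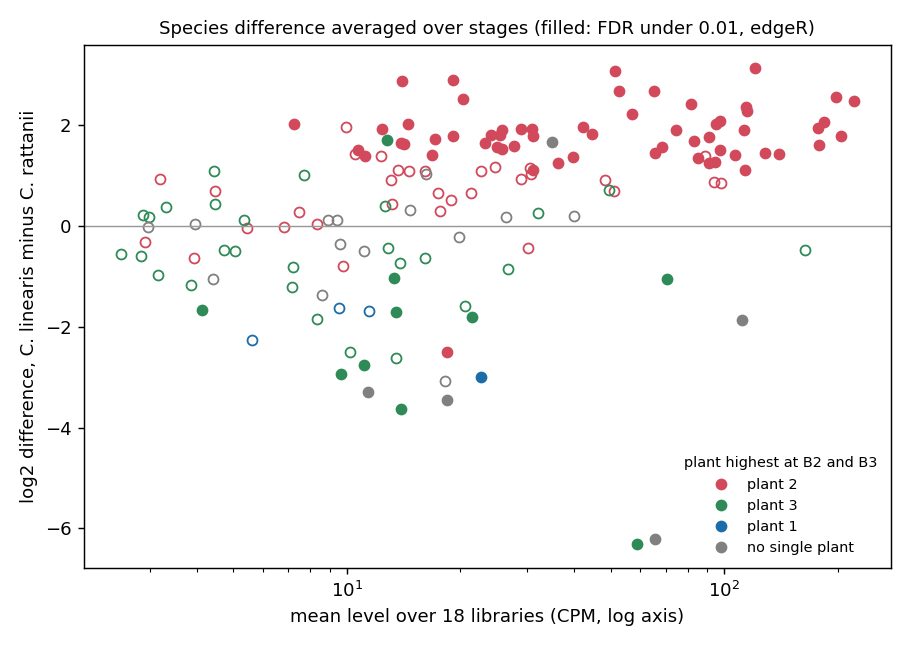
Log2 difference between species averaged over stages (y axis, *C. linearis* minus *C. rattanii*) against the mean level over the 18 libraries (x axis, CPM on a log axis) for the 151 genes, coloured by the plant highest at B2 and B3. Filled marks are the 75 genes with an FDR under 0.01 by edgeR's test, and most genes highest in plant 2 lie above 0.

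The smallest FDRs with *C. linearis* higher belonged to RCORA90649, RCORA77309 and RCORA117916. RCORA90649 was at 323, 73.3 and 66.8 CPM at B1, 330, 729 and 145 CPM at B2, and 76.1, 177 and 55.1 CPM at B3, against 15.9 to 31.8 CPM in *C. rattanii*, with no overlap. Its log2 difference was 3.13 ± 0.404 (SE), with an adjusted p of 1.85e-05 by edgeR's test. RCORA77309 was at 18.4, 13.6 and 17.6 CPM at B1, 23.0, 48.1 and 15.0 CPM at B2, and 20.7, 42.3 and 11.2 CPM at B3, against 4.73 to 7.23 CPM, also with no overlap. Its log2 difference was 2.03 ± 0.276 (SE), with an adjusted p of 2.94e-05 by edgeR's test. In RCORA117916 the values ran from 31.9 to 557 CPM in *C. linearis* and from 13.6 to 35.4 CPM in *C. rattanii*, and its log2 difference was 2.42 ± 0.387.

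With *C. rattanii* higher, the smallest FDRs belonged to RCORA121283, RCORA32137 and RCORA116623. RCORA121283, whose values are given above, had a log2 difference of -6.22 ± 0.821 (SE), with an adjusted p of 2.34e-05 by edgeR's test and of 0.0477 on sums per plant, which missed the threshold, whereas the other 5 genes named for this difference passed both. RCORA32137 was at 5.30, 5.02 and 2.48 CPM at B1, 7.76, 0.892 and 3.71 CPM at B2, and 0.573, 0.224 and 3.72 CPM at B3, against 22.6 to 41.4 CPM in *C. rattanii*. Its log2 difference was -3.45 ± 0.463. RCORA116623 lay between 0.503 and 5.45 CPM in *C. linearis* and between 14.9 and 20.9 CPM in *C. rattanii*, with a log2 difference of -2.94 ± 0.423. The species did not overlap in any of these 3 genes.

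At B1 alone 4 of the 151 genes differed between the species (2.65%), against a background of 15.7% of the genes tested, by edgeR's test at an FDR of 0.01. This test estimates the spread of a gene over all groups of species and stage. The wide B2 and B3 spread that chose the genes is thus part of its error. The low count therefore does not show that the species were alike at B1. The genes called were RCORA113344 and RCORA90649, higher in *C. linearis*, and RCORA121283 and RCORA85056, higher in *C. rattanii*. RCORA113344 was at 5.55, 76.6 and 151 CPM in B1 plants 1, 2 and 3 and at 2.50 to 4.599 CPM at B1 of *C. rattanii*. Its B1 order followed that of the pollen wall genes (27.8, 1398 and 3193 CPM), and the part of that difference in the result was not tested. Its log2 difference was 4.41 ± 0.879 (SE), with an adjusted p of 0.00209 by edgeR's test. RCORA85056 was at 3.04, 1.09 and 0.481 CPM at B1 of *C. linearis* and at 20.8 to 29.0 CPM in *C. rattanii*, and it reached 13.3 and 27.5 CPM in plant 2 of B2 and B3. DESeq2 called 14 of the 147 genes to which it gave an adjusted p at B1 (9.52%, background 24.2%), 3 of them among the 4. At an FDR of 0.05 edgeR called 16 of the 151 (10.6%, background 29.8%).

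The fourth question was whether the levels changed over bud stages. As at B1, the spread that chose the genes is part of the error of these tests. In *C. linearis*, 3 of the 151 genes changed with stage (1.99%), against a background of 3.06%, by edgeR's test at an FDR of 0.01. With the labelled plant as a block the count was 0, and without the libraries of plant 2 it was 0, with no share over all genes tested taken in these runs. DESeq2 called 23 of the 147 genes to which it gave an adjusted p (15.6%, background 13.4%). At an FDR of 0.05 edgeR called 20 of the 151 (13.2%, background 13.6%). The 3 genes called by edgeR at an FDR of 0.01 were RCORA113344, RCORA169536 and RCORA168351. RCORA113344 fell after B1 in plants 2 and 3, whereas plant 1 was higher at B2 than at B1 and lower at B3. It was at 8.50, 2.43 and 3.46 CPM at B2 and 1.11, 0.951 and 2.97 CPM at B3, with an adjusted p of 0.00272 by edgeR's test. RCORA169536 fell as well, from 29.3, 46.7 and 49.6 CPM at B1 to 20.8, 6.28 and 9.92 CPM at B2 and 2.17, 1.40 and 7.19 CPM at B3, against 7.34 to 12.6 CPM in *C. rattanii*, with an adjusted p of 0.0032 by edgeR's test. RCORA168351, whose values are given above, rose from B1 to B3, with an adjusted p of 0.00758 by edgeR's test.

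The count of stage changes in *C. linearis* moved with the library left out. Leaving out B1 plant 3, B3 plant 1 or B3 plant 2 gave 0 genes and leaving out B1 plant 2 gave 1. It was 11 genes without B1 plant 1, 7 without B2 plant 3 and 6 without B3 plant 3. No share over all genes tested was taken in these runs, so the shifts are not read as a trait of the 151 genes. In *C. rattanii* 0 of the 151 genes changed with stage by edgeR's test, with 1 gene at an unadjusted p under 0.05 (background 8.41%) and 0 genes by DESeq2 (background 0.875%). The lowest adjusted p in *C. rattanii* was 0.433 by edgeR's test. Each gene has a single estimate of the spread over all groups of species and stage. The wide *C. linearis* spread that chose the genes is thus part of the error here. The low counts therefore do not show that these genes were steady over stages in *C. rattanii*. RCORA157834 was among the 3 genes with the lowest p in *C. rattanii*, at 18.8 to 27.7 CPM at B1, 7.54 to 11.1 CPM at B2 and 4.27 to 5.77 CPM at B3, so that the stages did not overlap in this gene although it did not pass.

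For the interaction of species and stage, 0 of the 151 genes passed by edgeR's test, with 24 at an unadjusted p under 0.05 (15.9%, background 17.7%), and over all 27837 genes tested 0 passed. DESeq2 called 3 of the 147 genes to which it gave an adjusted p (2.04%), against a background of 3.25%. These were RCORA113344, RCORA169536 and RCORA168351, the genes named for the stage change in *C. linearis*. Their adjusted p values for the interaction were 0.0704, 0.102 and 0.119 by edgeR's test. A difference in stage course between the species was therefore not detectable for these genes with edgeR at 3 plants a group. The wide *C. linearis* spread that chose the genes is part of the error of this test too.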

How the data were processed

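Whole floral buds of 3 plants per species and 3 stages gave 18 libraries. Reads were mapped by the authors with STAR, for *C. linearis* too, against the genome of *C. rattanii*, and featureCounts summed them by gene model. The submitters' processing notes also name FastQC 0.11.9. The deposited values are raw counts per gene and library, with strand and multiple-mapping settings not given in the sources used here. Beside these, 2 further deposited columns of per-sample values matched no sample and were not used. The deposited counts gave 23831351 to 41451418 reads per library, which sets the counting error of low genes, and replicate libraries differed by far more than sampling noise. P-values of the tests over 18 libraries measure the spread between libraries of the same species and stage, which may be technical in part. Only the test on sums per plant sets the species difference against the spread between labelled plants.

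TMM factors over all 46127 genes (edgeR 4.0.16, R 4.3.3) gave the CPM that chose and describe the 151 genes, so CPM and the tests differ slightly in scaling. The tests used counts of the 27837 genes that passed edgeR's filterByExpr, TMM factors after that filter, and the quasi-likelihood F-test on species, stage and their interaction over 18 libraries, with Benjamini-Hochberg adjustment at an FDR of 0.01. The authors used DESeq2; DESeq2 1.42.0 was an alternative here. Scripts were tested on simulated data. The genes and thresholds were chosen with earlier results of these data known. Named genes were the 8 with the highest mean CPM, the extremes of the plant ratios at B2 and B3 and of the B1 CV, the 3 with the lowest p of each test, and those nearest each threshold of the rule. No member was among genes the study's text names.

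The labels give a plant number at each stage without saying that it is the same individual. The study sampled each plant at every bud stage, so the numbers would pair libraries within a species. Deviations from the group means of same-numbered libraries had a median r of -0.0501 (-0.448 to 0.639 over 18 pairs) against 0.0157 for other pairs, and the on and off states did not follow the numbers. Alternatives were other scalings, CV and mean thresholds, FDR 0.05, no filter on low counts, DESeq2, a plant block and leaving out each plant or library; TMM after the filter, setting aside plant 2 and sums per plant were added after seeing the data.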

Additional observations from a re-analysis of the deposited data

Results flagged for a closer look

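In 5 of the 151 genes, and in 1254 of the 27837 genes tested, the change from B1 to B3 had one sign in all 3 labelled plants of *C. linearis* and the opposite sign in all 3 of *C. rattanii*. RCORA113344 and RCORA198728 are the named genes among them, and the difference was not tested in this form. For RCORA113344 the log2 changes were -2.23, -6.19 and -5.62 in *C. linearis* plants 1, 2 and 3 and 0.19, 0.29 and 0.50 in *C. rattanii*, a difference of means of -5.01. For RCORA198728 they were 0.78, 4.22 and 1.62 against -0.33, -0.04 and -0.41, a difference of 2.46. The interaction of species and stage in edgeR's test gave adjusted p values of 0.0704 and 0.206. As plant numbers did not mark the same on and off states across stages, these changes within a number may compare different individuals.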

How the results depend on the processing

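The number of genes passing the rule (151) was 229 with DESeq2 size factors, 305 and 68 with a CV floor of 0.5 and 0.7 in *C. linearis*, 89 with a CV ceiling of 0.25 in *C. rattanii*, and 51 to 288 with a plant left out. The 75 genes called for the averaged species difference ranged from 61 to 96 with a library left out and became 29 with counts summed per labelled plant, staying within 1.5 times under the other alternatives. The 4 genes called at B1 became 14 with DESeq2, 16 at an FDR of 0.05, 8 without the plant 2 libraries, and 1 to 10 with a library left out. The 3 genes with a stage change in *C. linearis* became 23 with DESeq2, 20 at an FDR of 0.05, 0 without the plant 2 libraries, and 0 to 11 with a library left out. The interaction count of 0 became 3 with DESeq2 and 0 to 1 with a library left out. For the B1, stage and interaction counts, no share over all genes tested was taken in the runs with libraries left out. With the labelled plant as a replicate block, the stage change in *C. linearis* fell to 0 genes; the stage change in *C. rattanii* and the interaction stayed at 0, and as plants are nested in species, the species difference was run on sums per plant in place of a block. Genes with a B1 CV of at least 0.6 (81) ranged from 29 to 94, and genes with the same plant highest at all stages (3) from 21 to 61, with a plant left out, which leaves fewer plants to compare. RCORA121283 kept its log2 difference (-6.20) with DESeq2 without an adjusted p, since that tool gave none. Apart from fewer plants, the cause of these shifts was not tested. The log2 species differences of RCORA90649, RCORA77309, RCORA117916, RCORA121283, RCORA32137 and RCORA116623 kept their sign in every alternative run. Values under about 0.2 CPM rest on few reads.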
